A study of Homo sapiens with 9 samples.

Results

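The aryl hydrocarbon receptor (AHR) pathway was followed in HaCaT cells through 7 genes chosen by symbol: AHR, its partner ARNT, the repressors AHRR and TIPARP, and the target enzymes CYP1A1, CYP1B1 and ALDH3A1. They were 7 of 16199 genes detected in the series, and all 7 were among the 12394 genes that passed the count filter. HaCaT is an immortalized human keratinocyte line, and all cultures came from this single line. The cells were treated after they had become confluent. The untreated group received serum-free medium alone, the EGF group 10 nM epidermal growth factor in that medium, and the bleogen pB1 group 1 µM of this plant-derived agonist of the EGF receptor in that medium. The treatments lasted 24 h, each group had 3 replicates, and no ligand of AHR was among the treatments named in the labels. The comparisons asked how each agonist changed the transcripts of the cells, and the question followed here is what happened to this pathway.

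AHR is a transcription factor of the bHLH-PAS family that waits in the cytosol with HSP90 and its co-chaperones until a planar aromatic ligand, such as dioxin or a light-formed product of tryptophan, binds it. It then enters the nucleus, pairs with ARNT and binds xenobiotic response elements, whose core reads GCGTG, in front of genes for enzymes that oxidise such ligands. AHRR competes with AHR for ARNT, and TIPARP, a mono-ADP-ribosyltransferase, acts on AHR and lowers its activity, so that both close a feedback loop. In skin, the pathway is known for the response to dioxin and coal tar and for its part in the formation of the barrier.

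The upstream sequences of the receptor's classical target CYP1A1 and of AHRR are shown because they hold the letters that AHR and ARNT recognise. The core GCGTG was searched on both strands, together with the extended form TNGCGTG, which contains the core. GCGTG is also 1 form of the core of the hypoxia response element, so that a match is not particular to AHR. Promoters from RefSeq (GRCh38.p14) matched 5 of the 7 genes, and CYP1B1 and ALDH3A1 were without an entry. In the lines that follow, written 5′ to 3′ on the strand of the gene, capitals mark GCGTG or, where the core lies on the other strand, CACGC. The first is the stretch 1130 to 879 bases before the start of CYP1A1 (chr15:74726407-74726658, minus strand), the second the 250 bases before that start (chr15:74725529-74725778, minus strand), and the third the 250 bases before the start of AHRR (chr5:321464-321713, plus strand).
CYP1A1 distal: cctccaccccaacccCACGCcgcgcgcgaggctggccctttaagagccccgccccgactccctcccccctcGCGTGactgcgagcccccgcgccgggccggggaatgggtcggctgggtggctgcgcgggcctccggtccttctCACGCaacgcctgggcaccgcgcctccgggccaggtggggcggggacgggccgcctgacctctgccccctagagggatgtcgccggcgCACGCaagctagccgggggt
CYP1A1 proximal: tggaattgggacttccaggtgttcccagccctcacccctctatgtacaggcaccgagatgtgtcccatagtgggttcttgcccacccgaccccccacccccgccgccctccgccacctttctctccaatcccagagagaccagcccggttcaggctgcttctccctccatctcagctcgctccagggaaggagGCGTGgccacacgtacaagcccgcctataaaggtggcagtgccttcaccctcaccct
AHRR proximal: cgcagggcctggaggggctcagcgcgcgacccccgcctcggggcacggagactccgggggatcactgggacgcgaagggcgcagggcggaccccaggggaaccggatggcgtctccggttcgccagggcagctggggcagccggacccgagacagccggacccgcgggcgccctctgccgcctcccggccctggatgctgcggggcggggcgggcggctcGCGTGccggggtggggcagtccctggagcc
The distal stretch of CYP1A1 held 4 cores, 3 of them in the extended form. It was chosen within the 1500 bases for holding the most extended forms, so these counts follow from the choice. The proximal stretch held 1 core, 57 to 53 bases before the start, and AHRR held 1 core in the extended form 30 to 26 bases before its start. The starts used were those of RefSeq, and those of AHR (17298652) and TIPARP (156674590) lie inside the gene spans given below. Within 1500 bases before these starts, CYP1A1 held 10 cores, TIPARP 6, ARNT 5, AHRR 4 and AHR 0. For comparison, 85.4% of the 10169 tested genes with a promoter entry held at least 1 core in that distance, with a median of 2 cores, and 99.3% of them held fewer cores than CYP1A1. The extended form was found in 28.1% of these genes, and CYP1A1 held 5 copies, ARNT 2 and AHRR 1. In the nearest 250 bases, 45.7% of the tested genes held the core, and TIPARP held 2 copies while AHR and ARNT held 0. These matches describe letters and not binding, which was not measured.

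**Figure D1:**
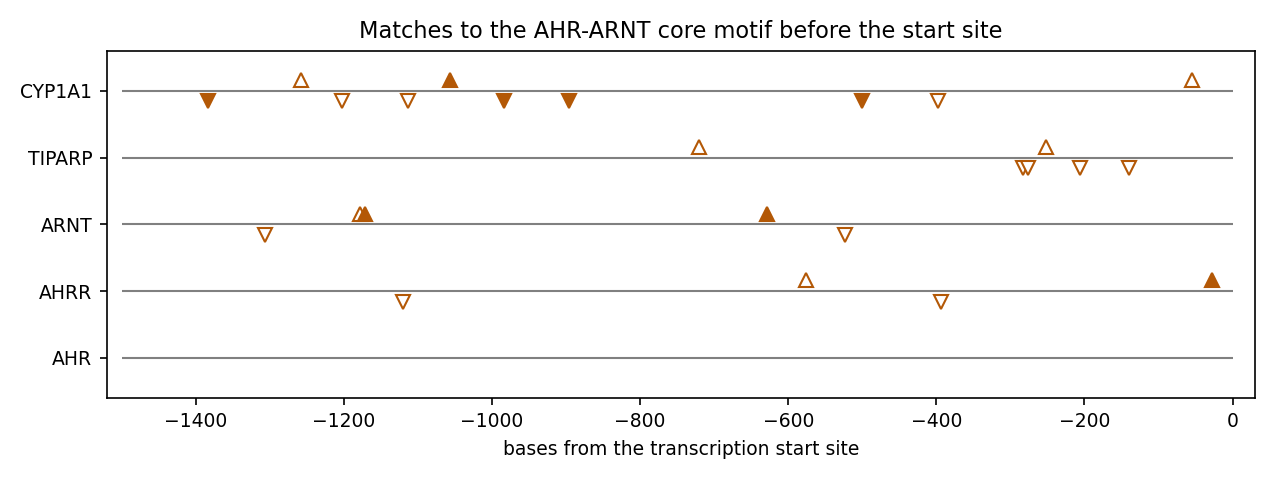
Matches to GCGTG in the 1500 bases before the start site of the 5 genes with a RefSeq promoter (horizontal axis, bases from the start site). Upward triangles mark the strand of the gene, downward triangles the other strand, and filled triangles the extended form TNGCGTG. CYP1A1 has 10 matches, 5 of them filled, and AHR has 0.

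The libraries held 20288417 to 21320994 expected counts each (median 20629237), so that 3 counts stood for 0.141 to 0.148 CPM (counts scaled to library size). This limit covers counting error only. The labels do not state whether replicates were separate cultures, so the p-values measure the spread between these samples, which may be technical. Same-group libraries differed by more than counting noise in every pair, with a chi-square per degree of freedom of 3.82 to 20.5. The highest values were those of replicates 1 and 2 with EGF (20.2) and with bleogen pB1 (20.5), and the other pairs reached at most 7.78. The 6 keratinocyte markers were present in every library, and their summed level was 4617 to 5110 FPKM (fragments scaled to gene length and library size) in untreated cells, 3881 to 3993 with EGF and 4769 to 5519 with bleogen pB1. KRT5 made up most of this sum in untreated and bleogen pB1-treated cells and fell with EGF from 3270 to 3636 FPKM to 1492 to 1589. CDH1 was also lower with EGF (93.2 to 94.9 untreated, 54.2 to 60.5 with EGF). The other 4 markers were higher with EGF: KRT14 (922 to 1082 untreated, 1746 to 1788 with EGF), ITGA6 (99.9 to 103 and 220 to 261), TP63 (46.9 to 50.3 and 58.0 to 76.6) and LAMB3 (174 to 181 and 224 to 304). With bleogen pB1, KRT14 (1384 to 1475), ITGA6 (132 to 150) and TP63 (56.3 to 58.9) also lay above the untreated range. CDH1 (78.1 to 91.8) lay below it, and KRT5 (2933 to 3576) and LAMB3 (165 to 189) overlapped it. The sum of 5 fibroblast markers was 0.59 to 0.89 FPKM in untreated cells, 0.13 to 0.22 with EGF and 0.58 to 0.86 with bleogen pB1. The 5 melanocyte markers summed to at most 0.87 FPKM with TYR at 0 in all libraries, and the 4 endothelial markers to at most 0.18 FPKM. The 4 leukocyte markers summed to 6.58 to 6.99 FPKM untreated, 10.3 to 11.4 with EGF and 5.87 to 6.63 with bleogen pB1, nearly all of it CD68, a lysosomal gene that other cells also express. PTPRC, the general leukocyte marker, had 0 to 6 counts per library. The part of these markers in the results was not tested. In bulk RNA, fewer cells that express a gene and less of its RNA per cell cannot be told apart.

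In untreated cells the mean FPKM, which is scaled to gene length, ranked the pathway genes as ALDH3A1 (28.6 ± 0.335, SD, n = 3), AHR (19.4 ± 2.16), TIPARP (17.6 ± 1.02), ARNT (12.2 ± 0.315), CYP1B1 (6.71 ± 0.640), CYP1A1 (0.507 ± 0.132) and AHRR (0.327 ± 0.0643). The ranges of AHR and TIPARP overlapped, as did those of CYP1A1 and AHRR, and the other neighbours in this order did not overlap. With EGF the order was AHR (22.2 ± 1.00), TIPARP (18.6 ± 0.731), ALDH3A1 (9.31 ± 1.24), ARNT (8.81 ± 0.509), CYP1B1 (1.24 ± 0.0751), AHRR (0.383 ± 0.0850) and CYP1A1 (0.0900 ± 0.0265), where only ALDH3A1 and ARNT overlapped. With bleogen pB1 it was ALDH3A1 (24.6 ± 0.107), AHR (21.9 ± 0.625), TIPARP (15.3 ± 0.184), ARNT (12.1 ± 0.983), CYP1B1 (3.74 ± 0.355), CYP1A1 (0.410 ± 0.166) and AHRR (0.333 ± 0.0208), where only CYP1A1 and AHRR overlapped. ALDH3A1 was thus the highest of the 7 in untreated and bleogen pB1-treated cells and the third with EGF.

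**Figure D2:**
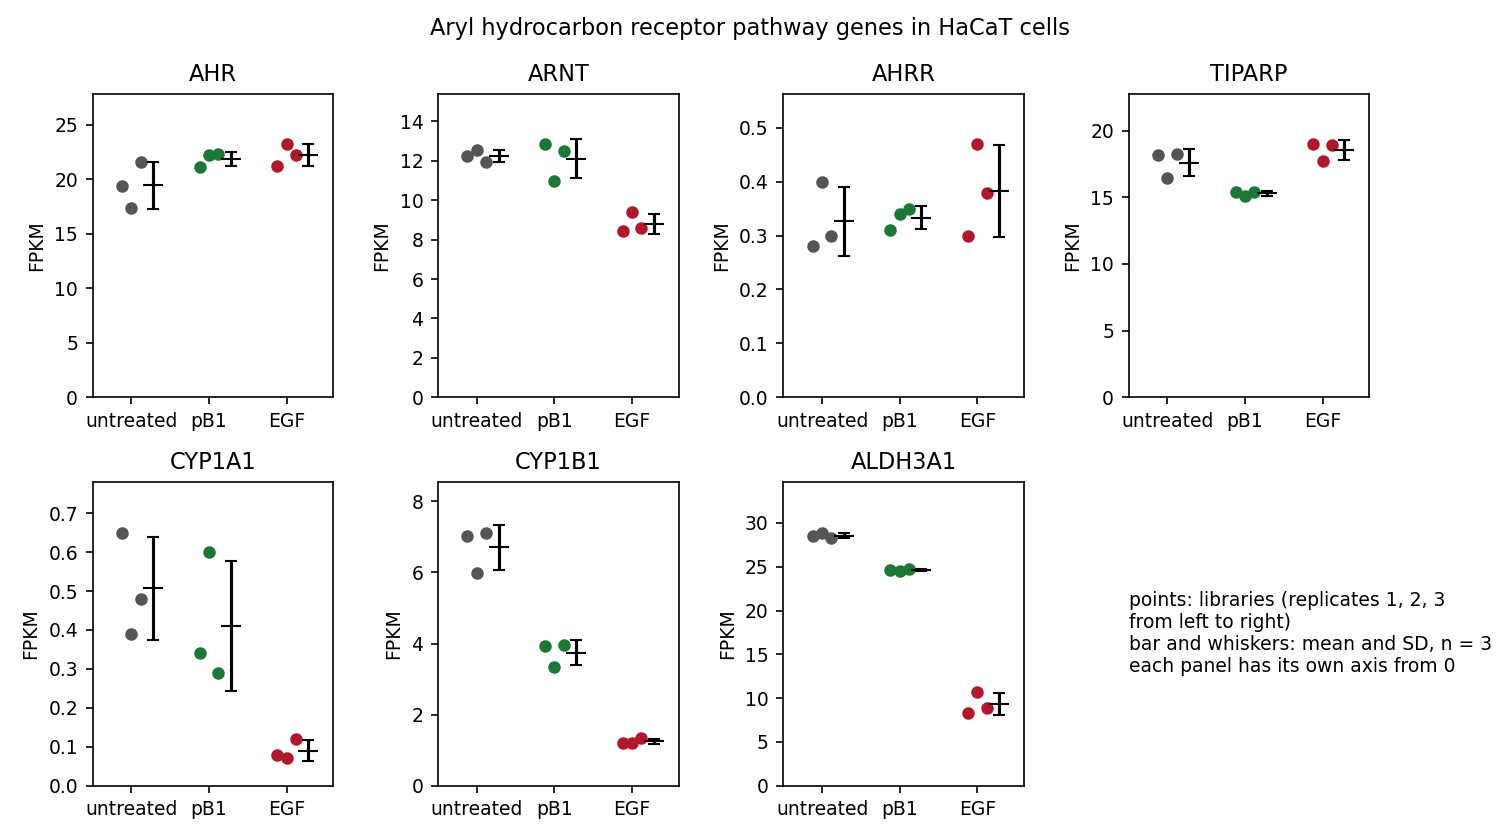
FPKM (vertical axes, each from 0) of the 7 pathway genes in untreated, bleogen pB1-treated (pB1) and EGF-treated HaCaT cells. Points are single libraries with replicates 1, 2 and 3 from left to right, and bars with whiskers are the mean and SD of 3 libraries. CYP1B1 fell in steps from 5.97 to 7.12 FPKM untreated over 3.33 to 3.95 with bleogen pB1 to 1.20 to 1.33 with EGF, while AHR stayed between 17.3 and 23.2 FPKM in all libraries.

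CYP1B1 was the pathway gene that changed with both agonists, CYP1A1 and ALDH3A1 fell with EGF, and the receptor, its partner and its repressors were not called with either agonist. A gene was called differentially expressed at an adjusted p of at most 0.05 (edgeR quasi-likelihood test, Benjamini-Hochberg adjustment over all tested genes) and a log2 fold change (log2FC) of at least 0.5 in either direction. With bleogen pB1, 1 of the 7 genes was called lower and 0 were called higher, against 1.26% of all tested genes called lower and 0.218% called higher. At an unadjusted p under 0.05 the number was 3, against 22.2% of all genes, and DESeq2 called 1, also CYP1B1. By the adjusted p alone the number was 1, against 4.11% of all genes in either direction. With EGF, 3 of the 7 genes were called lower and 0 higher, against 21.8% and 15.1% of all tested genes. At an unadjusted p under 0.05 the number was 6, against 69.1% of all genes, and by the adjusted p alone it was 5, against 66.1%. DESeq2 called 3. Under upper-quartile scaling the share of higher calls with EGF was 30.2% of 4617 in place of 41.0% of 4578. Both comparisons used the same 3 untreated libraries. The exact permutation test of 3 against 3 libraries (two-sided) cannot go below 0.1, and it gave 0.1 wherever the CPM of 2 groups did not overlap.

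AHR itself (NCBI gene 196, chromosome 7, 16916359 to 17346152, plus strand, GENCODE 44 on GRCh38) had 19.4, 17.3 and 21.6 FPKM in untreated replicates 1, 2 and 3. The values were 21.2, 23.2 and 22.3 with EGF and 21.2, 22.2 and 22.3 with bleogen pB1. Of the 6 treated libraries, 4 lay above the untreated range in FPKM and the other 2 below untreated replicate 3. In CPM, which uses the scaled library sizes, all EGF libraries (136 to 148) lay above all untreated ones (107 to 132). The log2FC of AHR with EGF was 0.26 (SE 0.07, adjusted p = 0.0069), under the limit for a call, and the adjusted p was 0.0727 with upper-quartile scaling. With bleogen pB1 it was 0.15 (SE 0.07, adjusted p = 0.226). Of the exon bases of AHR, 29.5% are shared with another annotated gene on the same strand, ENSG00000283321. Reads from the 2 genes cannot be told apart there, and the effect on the AHR values was not tested.

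ARNT, which AHR needs to bind DNA and which also serves the hypoxia factors (NCBI gene 405, chromosome 1, 150809713 to 150876708, minus strand), had 12.3, 12.6 and 11.9 FPKM untreated and 8.45, 9.39 and 8.58 with EGF. The values with bleogen pB1 were 12.9, 11.0 and 12.5. All EGF libraries lay below all others, and the bleogen pB1 libraries spread around the untreated ones. The log2FC was -0.42 with EGF (SE 0.07, adjusted p = 0.00029), a difference that passed the p threshold and fell short of the fold limit, and -0.03 with bleogen pB1 (SE 0.07, adjusted p = 0.826). With upper-quartile scaling the EGF value was -0.52, past the limit, where the median of all genes lay at -0.12 in place of -0.01. Within a library, the FPKM of AHR was 1.38 to 1.82 times that of ARNT untreated, 2.48 to 2.59 times with EGF and 1.65 to 2.02 times with bleogen pB1. The ratio was therefore higher in each EGF library than in any other library.

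AHRR, the AHR repressor (NCBI gene 57491, chromosome 5, 321714 to 438291, plus strand), was near the lower end of the pathway with 0.28, 0.40 and 0.30 FPKM untreated, 0.30, 0.47 and 0.38 with EGF and 0.31, 0.34 and 0.35 with bleogen pB1. These levels rested on 32 to 53 counts per library, and the groups overlapped. The log2FC was 0.29 with EGF (95% interval -0.21 to 0.79, adjusted p = 0.279) and 0.02 with bleogen pB1 (-0.49 to 0.53, adjusted p = 0.970), so that changes within these intervals were not detectable at this depth. The direction with bleogen pB1 turned when untreated replicate 1 (-0.08), untreated replicate 3 (-0.05) or bleogen pB1 replicate 3 (-0.003) was left out. Of its 9480 annotated exon bases, 5561 (58.7%) are shared with the readthrough gene PDCD6-AHRR on the same strand, and reads from the 2 genes cannot be told apart there. The gene length deposited by the authors was only 5622 to 5676 bases, so the shared part of the bases that were counted may be larger.

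TIPARP (NCBI gene 25976, chromosome 3, 156673235 to 156706770, plus strand) had 18.2, 16.4 and 18.2 FPKM untreated. It had 15.4, 15.1 and 15.4 with bleogen pB1 and 19.0, 17.7 and 19.0 with EGF. The bleogen pB1 libraries lay below all others, and the EGF and untreated libraries overlapped in FPKM. The log2FC was -0.22 with bleogen pB1 (SE 0.06, adjusted p = 0.0667) and 0.14 with EGF (SE 0.06, adjusted p = 0.0551), and neither was called. Between EGF and bleogen pB1 the log2FC was 0.36 (SE 0.06, adjusted p = 0.000296), under the fold limit.

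CYP1A1, the classical inducible monooxygenase of the pathway (NCBI gene 1543, chromosome 15, 74719542 to 74725536, minus strand), was expressed at a low level in all groups. The untreated libraries had 35, 21 and 26 expected counts, equal to 0.65, 0.39 and 0.48 FPKM, the bleogen pB1 libraries 18, 33 and 16 counts (0.34, 0.60 and 0.29 FPKM) and the EGF libraries 4, 4 and 7 counts (0.08, 0.07 and 0.12 FPKM). All EGF libraries lay below all others, while the untreated and bleogen pB1 libraries overlapped. With EGF, CYP1A1 was 5.24-fold lower (log2FC -2.39, SE 0.42, adjusted p = 0.00024). With bleogen pB1 the log2FC was -0.33 (95% interval -1.03 to 0.37, adjusted p = 0.581), and a change of that size was not detectable at this depth. CYP1A1 passed the count filter through its counts in untreated and bleogen pB1-treated cells, and the EGF counts were close to the limit of 3 counts. On the scale log2(FPKM + 1), the difference with EGF was -0.46 and missed the fold limit, since the added 1 exceeds all levels of this gene. Of the 10 core matches in the 1500 bases before the start of this gene, 1 lay in the nearest 250 bases.

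CYP1B1, the monooxygenase that oxidises oestradiol and polycyclic hydrocarbons (NCBI gene 1545, chromosome 2, 38066973 to 38109902, minus strand), had 736, 618 and 747 counts untreated, equal to 7.03, 5.97 and 7.12 FPKM. It had 413, 357 and 419 counts with bleogen pB1 (3.94, 3.33 and 3.95 FPKM) and 127, 125 and 145 counts with EGF (1.20, 1.20 and 1.33 FPKM). The 3 groups were fully separated, with EGF lowest and untreated highest. CYP1B1 was 1.82-fold lower with bleogen pB1 (log2FC -0.86, SE 0.10, adjusted p = 0.00048), and its p ranked 23 among the 12394 genes. Leaving out any 1 of the 6 libraries compared kept this log2FC between -0.93 and -0.79, and the call remained. With EGF it was 5.17-fold lower (log2FC -2.37, SE 0.11, adjusted p = 3.08e-09). The FPKM of CYP1B1 exceeded that of CYP1A1 by 5.55 to 17.1 times in every library. Of its exon bases, 11.3% lie opposite the antisense gene CYP1B1-AS1, and the sources used here do not state whether the counting used the strand.

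ALDH3A1, an aldehyde dehydrogenase abundant in corneal epithelium and inducible through AHR (NCBI gene 218, chromosome 17, 19737984 to 19748943, minus strand), had 28.6, 28.9 and 28.2 FPKM untreated. With EGF it had 8.33, 10.7 and 8.89, and with bleogen pB1 24.6, 24.5 and 24.7. The 3 groups did not overlap. ALDH3A1 was 2.92-fold lower with EGF (log2FC -1.55, SE 0.09, adjusted p = 3.08e-08). With bleogen pB1 the log2FC was -0.23 (SE 0.09, adjusted p = 0.141), which was not called although the libraries were separated, and the 95% interval was -0.42 to -0.04. With only the 6 libraries compared in the fit, the adjusted p was 0.0376, still under the fold limit.

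**Figure D3:**
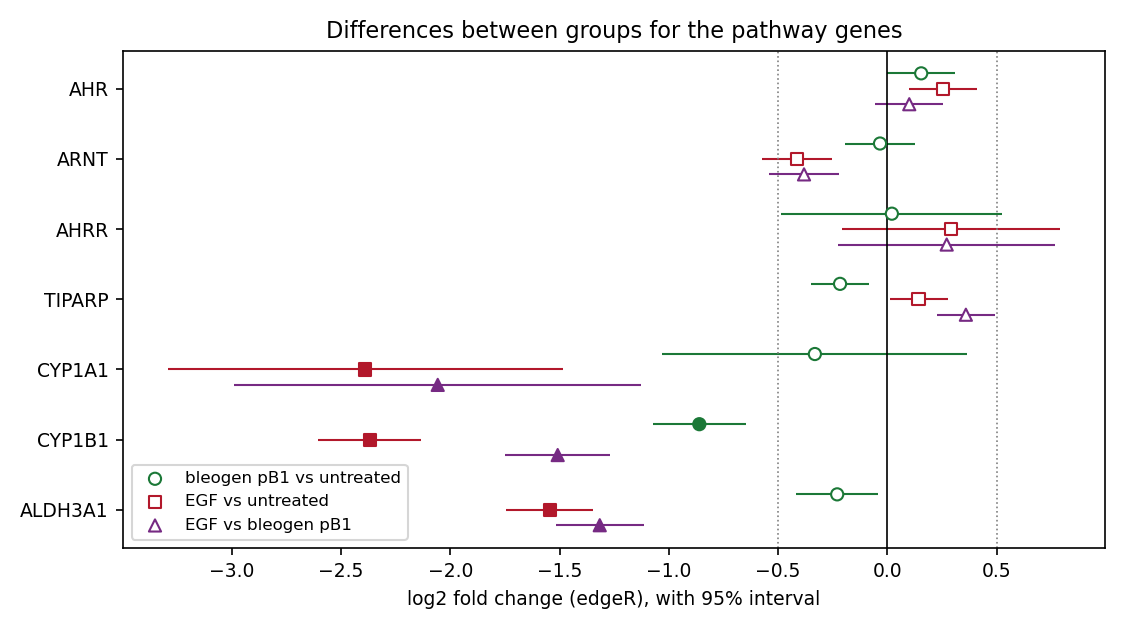
Log2 fold change of the 7 pathway genes (edgeR) with 95% intervals for each agonist against untreated cells and for the 2 agonists against each other. Filled symbols are called genes, and dotted lines mark the fold limit of 0.5. CYP1B1 is the called gene with bleogen pB1 (-0.86), and CYP1A1, CYP1B1 and ALDH3A1 are called in both comparisons with EGF.

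The direct comparison of the agonists tested the difference between their effects, at doses that were not matched. Lower levels with EGF than with bleogen pB1 were called for 3 of the 7 genes and higher levels for 0, against 18% and 10.8% of all genes, and DESeq2 also called 3. By the adjusted p alone the number was 5, against 58.2% of all genes, and at an unadjusted p under 0.05 it was also 5, against 62.6%. CYP1A1 was 4.16-fold lower with EGF (log2FC -2.06, SE 0.43, adjusted p = 0.0013), CYP1B1 2.85-fold lower (log2FC -1.51, SE 0.11, adjusted p = 2.63e-07) and ALDH3A1 2.49-fold lower (log2FC -1.32, SE 0.09, adjusted p = 1.77e-07). ARNT differed by -0.38 (adjusted p = 0.00075) and TIPARP by 0.36, both under the fold limit. AHR differed by 0.10 (95% interval -0.05 to 0.25) and AHRR by 0.27 (-0.22 to 0.77). The median log2FC of the 7 genes was -0.22 with bleogen pB1, -0.42 with EGF and -0.38 between the agonists, where the medians of all tested genes were -0.001, -0.01 and -0.01. Under upper-quartile scaling the share of higher calls between the agonists was 28.8% in place of 37.6%.

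In the cytosolic complex that holds AHR, 3 of 4 genes rose with EGF, against 15.1% of all tested genes. HSP90AA1 and HSP90AB1, the HSP90 chaperones, and PTGES3, the p23 co-chaperone, were called higher, and 0 of the 4 were called lower. HSP90AA1 had 449, 449 and 500 FPKM untreated, 809, 818 and 848 with EGF and 532, 713 and 587 with bleogen pB1. Its log2FC was 0.89 with EGF (SE 0.09, adjusted p = 3.09e-06) and 0.37 with bleogen pB1 (adjusted p = 0.0402), the latter under the fold limit. PTGES3 rose by 0.66 (adjusted p = 1.20e-05) and HSP90AB1 by 0.61 (adjusted p = 2.01e-05) with EGF. Here and below, the amount by which a gene rose, fell or was higher is a log2FC, also where FPKM levels stand beside it. With bleogen pB1, edgeR and DESeq2 called 0 of the 4, and 3 had an unadjusted p under 0.05, against 22.2% of all genes. The list median was 0.64 with EGF and 0.25 with bleogen pB1. HSP90 genes have many processed pseudogenes, so that their counts are uncertain.

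The other bHLH-PAS factors, which include further partners of ARNT and the clock factors, moved in both directions with EGF. Of 11 genes, 9 passed the filter, 3 rose and 3 fell, against 15.1% and 21.8% of all tested genes. By the adjusted p alone the number was 8, against 66.1% of all genes. ARNTL2, a clock factor, rose by 0.92 (adjusted p = 6.24e-07), and ARNT2, the paralog of ARNT, rose by 1.11 (adjusted p = 0.0027) from 0.14 to 0.16 FPKM to 0.26 to 0.36. ARNT2 had only 22, 19 and 19 expected counts in the untreated libraries, and its call was lost on log2(FPKM + 1) (0.19). EPAS1, the hypoxia factor HIF-2α, fell by 0.62 (adjusted p = 1.98e-05). SIM2, a developmental repressor, fell by 1.93 (adjusted p = 0.00032) and had only 14.4, 6.2 and 11.5 expected counts in the EGF libraries. SIM2 passed the count filter through the other 2 groups, and its call was lost on log2(FPKM + 1) (-0.39). The clock factor ARNTL fell by 0.80 (adjusted p = 0.0013). CLOCK rose by 0.50 (adjusted p = 0.000254), at the limit of a call, and was below it under 5 processing alternatives (0.38 to 0.49). The call was lost as well without untreated replicate 1 (0.47), untreated replicate 2 (0.45) or EGF replicate 3 (0.46). With bleogen pB1, edgeR called 0 of these genes and DESeq2 0, with log2FC values from -0.23 to 0.12. At an unadjusted p under 0.05 the number was 0, against 22.2% of all genes. The list median was 0.34 with EGF and 0.01 with bleogen pB1.

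Among the other xenobiotic enzymes the called changes with EGF were falls. Of 12 genes, 9 passed the filter, 6 fell, 0 rose, and the median log2FC was -0.71. Of all tested genes, 21.8% fell and 15.1% rose. At an unadjusted p under 0.05 the number was 7, against 69.1% of all genes, and DESeq2 called 6. EPHX1, microsomal epoxide hydrolase, had 44.2, 42.1 and 43.2 FPKM untreated and 15.6, 10.6 and 13.2 with EGF, and the log2FC was -1.63 (adjusted p = 7.02e-08). UGT1A6, a glucuronosyltransferase, fell by 0.71 (adjusted p = 1.77e-07) from 221 to 233 FPKM to 132 to 139, and it shares exons with the other UGT1A genes, so that its counts are uncertain. The aldehyde dehydrogenases ALDH3B1 and ALDH3B2, which are similar in sequence, fell with log2FC values of -2.19 (adjusted p = 1.52e-07) and -4.90 (adjusted p = 3.07e-07), and ALDH3B2 was left with 5, 1 and 6 counts in the EGF libraries. It passed the count filter through the other 2 groups, and its fold rests on these few counts. The remaining 2, named after their values were seen, were POR, the reductase that feeds electrons to cytochromes P450 (-0.76), and CYP2S1 (-0.57). With bleogen pB1, edgeR called 1 gene lower and 0 higher, against 1.26% and 0.218% of all tested genes, and DESeq2 called 2. ALDH3B1 had 19.0, 19.0 and 18.2 FPKM untreated and 14.3, 9.0 and 11.9 with bleogen pB1, with a log2FC of -0.69 (SE 0.14, adjusted p = 0.0196). This call was lost without untreated replicate 1 (adjusted p = 0.102), 2 (0.0817) or 3 (0.0606) and without bleogen pB1 replicate 2 (0.0529) or 3 (0.0936), while the log2FC stayed between -0.86 and -0.54. ALDH3B2 had a log2FC of -0.83 (adjusted p = 0.0724 by edgeR and 0.036 by DESeq2).

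Of 8 other genes known to respond to dioxin, all passed the filter, and with EGF 4 rose and 1 fell, against 15.1% and 21.8% of all tested genes. EREG, the EGF family ligand epiregulin, had 1.02, 0.92 and 1.00 FPKM untreated and 8.41, 9.45 and 8.94 with EGF, a rise by 3.25 (SE 0.24, adjusted p = 1.74e-07). SERPINB2, an inhibitor of plasminogen activators, rose by 1.85 (adjusted p = 1.85e-08), and IL1B, interleukin 1β, by 1.43 (adjusted p = 1.66e-07). NEDD9, a scaffold protein of focal adhesions, fell by 2.64 (adjusted p = 5.31e-07). PTGS2, the inducible cyclooxygenase, rose by 2.01 (adjusted p = 0.000245) and is named after its values were seen. With bleogen pB1, edgeR and DESeq2 called 0 of the 8, and 1 had an unadjusted p under 0.05, against 22.2% of all genes. The list median was 0.84 with EGF and -0.04 with bleogen pB1.

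The enzymes that turn tryptophan into kynurenine and its products, some of which are ligands of AHR, included 4 that fell with EGF. Of 10 genes, 7 passed the filter, and edgeR called 4 lower and 0 higher, against 21.8% and 15.1% of all tested genes. KYAT1, a kynurenine aminotransferase named after its values were seen, was higher by 0.49 (adjusted p = 0.000245), just under the fold limit, and DESeq2 called it higher (0.50) beside the same 4 falls. KMO, kynurenine monooxygenase, had 4.78, 5.52 and 4.22 FPKM untreated, 0.45, 0.69 and 0.65 with EGF and 5.00, 3.31 and 4.37 with bleogen pB1, and fell by 2.95 with EGF (adjusted p = 5.72e-08). IDO1, which starts the kynurenine route, fell by 2.03 (adjusted p = 3.48e-07) from 4.72 to 5.00 FPKM to 0.87 to 1.30. KYAT3, another such aminotransferase, fell by 0.67 (adjusted p = 3.49e-06) and KYNU, kynureninase, fell by 1.29 (adjusted p = 0.0086). KYNU had only 12, 5 and 14 counts in the EGF libraries and passed the count filter through the other 2 groups. Its call was lost on log2(FPKM + 1) (-0.47). With bleogen pB1, edgeR and DESeq2 called 0, and 2 had an unadjusted p under 0.05, against 22.2% of all genes. The list median was -0.67 with EGF and -0.006 with bleogen pB1.

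Of 6 barrier genes that AHR is known to raise in skin, 4 passed the filter, and 1 rose and 1 fell with EGF, where 36.9% of all tested genes were called in either direction. IVL, involucrin of the cornified envelope, had 6.92, 7.25 and 6.25 FPKM untreated, 0.52, 0.30 and 0.42 with EGF and 6.62, 2.80 and 5.03 with bleogen pB1, and fell by 3.96 with EGF (SE 0.32, adjusted p = 3.68e-07). OVOL1, a transcription factor of epidermal differentiation, rose by 0.51 (adjusted p = 0.0016), close to the fold limit. This rise was under the limit without untreated replicate 2 (0.45) or EGF replicate 2 (0.42) and under 4 processing alternatives (0.36 to 0.46). With bleogen pB1, edgeR and DESeq2 called 0, and 2 had an unadjusted p under 0.05, against 22.2% of all genes. By the adjusted p alone the number was 1, against 4.11% of all genes. That gene, FLG, is named after its values were seen. Its log2FC was -0.44 with bleogen pB1 (adjusted p = 0.0454), under the fold limit, and -0.02 with EGF (adjusted p = 0.892).

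**Figure D4:**
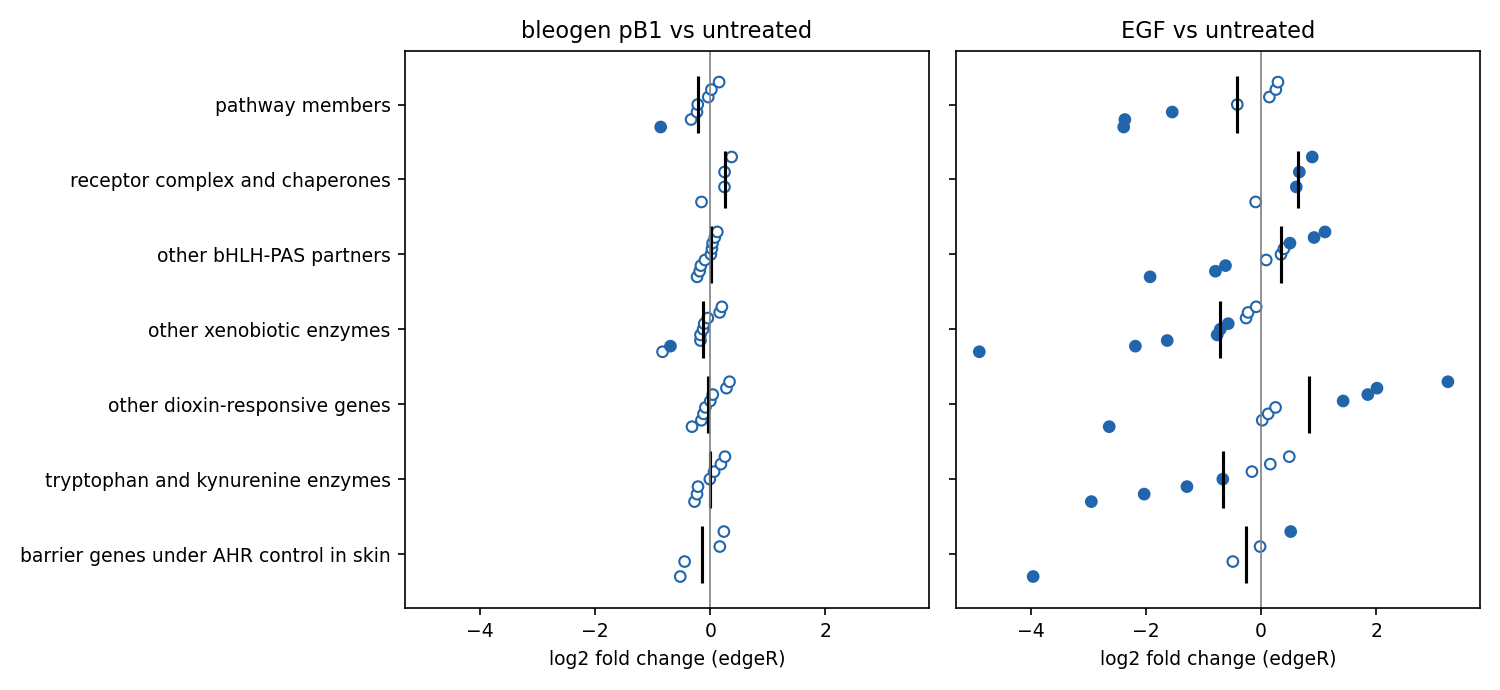
Log2 fold change (horizontal axis, edgeR) of each gene of the pathway and of 6 further lists, with bleogen pB1 (left) and EGF (right) against untreated. Filled circles are called genes, and the vertical black bar is the median of the list. With EGF the medians are -0.42 for the pathway genes, 0.64 for the chaperones and -0.71 for the xenobiotic enzymes, and with bleogen pB1 every median lies between -0.22 and 0.25.

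Between the agonists, 10.8% of all tested genes were called higher with EGF and 18% lower, and the lists are counted here over the genes that passed the filter. Of 4 chaperone genes, 1 was higher and 0 were lower, and of 9 bHLH-PAS genes, 2 were higher and 2 lower. Of 9 xenobiotic enzymes, 0 were higher and 5 lower, and of 8 dioxin-responsive genes, 4 were higher and 1 lower. Of 7 kynurenine genes, 0 were higher and 3 lower, and of 4 barrier genes, 0 were higher and 1 lower. HSP90AA1 was the chaperone called, with a log2FC of 0.52 (adjusted p = 0.00035), and it was under the limit without bleogen pB1 replicate 1 (0.43) or 3 (0.49) and under 4 processing alternatives (0.43 to 0.44). ARNTL, at -0.57 (adjusted p = 0.0138), missed the call without EGF replicate 1 (-0.47), EGF replicate 3 (-0.47) or bleogen pB1 replicate 1 (-0.46). EREG was higher with EGF than with bleogen pB1 by 2.96 (adjusted p = 4.20e-07), and KMO had a log2FC of -2.74 (adjusted p = 1.60e-07).

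For each called pathway gene, the genes with the most similar profile were taken as the 3 with the smallest root mean square distance over the 9 libraries, in log2 CPM relative to the untreated mean, among genes with a mean of at least 50 counts. For CYP1B1 these included RBM43 (distance 0.134) and PARP10 (0.143). RBM43, an RNA-binding protein, changed by -2.41 with EGF and -0.73 with bleogen pB1 on this scale, where CYP1B1 changed by -2.35 and -0.86. For ALDH3A1 they were SCPEP1, a carboxypeptidase (0.0965), the transcription factor IRF9 (0.114) and LRRC7 (0.123). For CYP1A1, whose counts are low, the distances were larger, with CASP1, an inflammatory caspase, at 0.319, USP18, a protease, at 0.337 and SYT15 at 0.340. The 9 libraries form 3 groups, so that these distances mainly compare 3 group levels and are given as a description.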

How the data were processed

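The authors had the reads of the 9 libraries mapped to GRCh38.p12. Per gene, the authors deposited expected counts, which are fractional read estimates without depth scaling, and FPKM, in which gene length and library size are divided out. The gene length deposited by the authors was not used in the tests. The counting program and its use of strand are not given in the sources used here. The paper and the labels name different RNA kits and instruments.

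After rounding, the counts entered the quasi-likelihood test of edgeR 4.0.16 (R 4.3.3) with all 9 libraries in 1 fit (filterByExpr, TMM factors of 0.964 to 1.02, 6 residual degrees of freedom), with Benjamini-Hochberg adjustment over 12394 genes. The thresholds were those of the paper. Intervals used the degrees of freedom of the fit (12.8). Samples were grouped by their titles. A gene not listed in a library counted as 0. Exact permutation tests used CPM. The alternatives were DESeq2 1.42.0, limma 3.58.1 on log2(FPKM + 1) or log2(FPKM + 0.1), other scaling, filters and fold limits, a fit of only the libraries compared, a block for the replicate number, and omission of single replicates. The statistics were tested on simulated data. Motifs were searched with Python 3.11.15, and genes were placed with GENCODE 44.

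The genes and lists were chosen with earlier results of these data known. All 7 pathway genes are named. Of each further list at most 4 called genes per comparison are named, those with the smallest adjusted p. A gene so named in 1 comparison may be given in another too, as with ARNT2 and ARNTL, so named between the agonists and given with EGF. The named genes are not given in every comparison. The rule leaves apart the genes said to be named after their values were seen and the genes that were not called. In addition, 2 genes are not reported here by name, and they stay in the fits and counts.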

Additional observations from a re-analysis of the deposited data

How the results depend on the processing

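Of 333 log2 fold changes of the pathway genes under alternatives, 326 kept their direction and their call or lack of one, 4 turned direction, 2 lost and 1 gained the call. The adjusted p alone crossed its threshold in some of them, as for AHR with EGF (0.0727 with upper-quartile scaling) and, with bleogen pB1, for TIPARP (0.0351 with DESeq2) and ALDH3A1 (0.0376 with 6 libraries). With bleogen pB1, AHRR ranged from -0.0759 to 0.198 and ARNT from -0.0821 to 0.0290 when 1 replicate was left out, so both turned direction, and neither was called. The number of pathway genes called was 0 with bleogen pB1 at a log2FC limit of 1, and 5 with EGF and 5 between the agonists by the adjusted p alone. ARNT with EGF passed the fold limit with upper-quartile scaling (-0.52), and CYP1A1 missed it on log2(FPKM + 1) with EGF (-0.46) and between the agonists (-0.37). A filter of 10 counts in every library removed CYP1A1, which left 2 called genes in each of these comparisons. Over all genes, 183 were called with bleogen pB1, and the number was 509 by the adjusted p alone, 31 at a limit of 1, and 102 to 436 with 1 replicate left out, highest without bleogen pB1 replicate 1. With EGF, 4578 were called, 8187 by the adjusted p alone and 1892 at a limit of 1, and between the agonists 3564, 7214 and 1458. With 3 libraries per group, it cannot be decided whether replicate numbers paired the samples. Same-number correlations were -0.03 to 0.21 for bleogen pB1 and untreated, and 0.004 to 0.06 otherwise. Their means were 0.10 for bleogen pB1 and untreated, 0.03 for EGF and untreated and 0.04 between the agonists. The means for unlike numbers were -0.05, -0.01 and -0.02. With the replicate number as a block, 1, 3 and 3 pathway genes were called with bleogen pB1, with EGF and between the agonists, as without it, and the counts over all genes were 186, 4560 and 3550. Of 665 values of the other named genes, 626 kept their direction and call, 34 lost and 5 gained the call, and 0 turned direction. CYP1A1 and AHRR are limited by depth.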
